A study of Mus musculus with 3 samples.

Results

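The regions described here are stretches of open chromatin away from gene starts that carried a peak in both Msx2-KO libraries and in no Msx2-WT peak list. Peaks of the 3 libraries were merged wherever they shared at least 1 base, on chromosomes 1 to 19 and with no limit on peak score, and a merged region was called distal when its centre lay more than 1500 bases from all protein-coding starts in GRCm38. Of 149028 merged regions, 133782 were distal, and 3971 of these were present in both Msx2-KO libraries and absent from Msx2-WT. These 3971 regions are called the members. They made up 2.97% of all distal regions, 15.1% of the 26331 distal regions with a peak in at least 2 libraries, 16.2% of those with a peak in Msx2-KO replicate 1 (KO1) and 6.32% of those with a peak in Msx2-KO replicate 2 (KO2). The members were chosen by the presence of a peak in KO1 and KO2 and its absence in Msx2-WT, so their tag numbers are a description, and no difference between genotypes was tested.

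Open chromatin was profiled by Omni-ATAC-seq, an assay that lets a transposase insert sequencing adapters into accessible DNA, in 1 Msx2-WT library and 2 Msx2-KO libraries. All came from hair follicle stem cells (HFSCs) sorted from dorsal skin as CD34+ CD49f+ Sca-1- cells of resting (telogen) skin at 6 months of age. Per the study's methods, the Msx2-KO mice were homozygous for a germline allele of Msx2 disrupted by a neomycin selection cassette, and Msx2-WT mice were C57BL/6J animals matched for hair cycle stage. The strain background of the Msx2-KO mice, the sex of the animals and the number of animals behind each library are not given in the sources used here, so the spread between the Msx2-KO libraries may be technical. By the labels KO1 and KO2 were one batch and Msx2-WT was another, and genotype, strain and batch cannot be told apart. Peaks of KO1 and KO2 are named with the letters cKO, and the peak names of KO1 carry another library number than its label does. The labels, which give a knockout, were followed, so every KO1 value rests on the label being right.

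Distal open regions include enhancers, elements that raise transcription of a gene from a distance and that are often specific to a cell type or state, as well as insulators and inactive elements. Open chromatin alone does not tell these apart, and the nearest gene is a positional label rather than a known target. Msx2 encodes a homeodomain transcription factor, most often described as a repressor, that binds short AT-rich sites. HFSCs reside in the bulge of the follicle, where LIM and SOX family factors, NFI proteins, TGF-beta, BMP and Wnt signals and cell-matrix adhesion are known to hold their identity and quiescence.

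Depth differed between the libraries and sets which peaks could be listed. The commonest background was 1.74 tags per counting window in Msx2-WT, 0.476 in KO1 and 0.790 in KO2. The lowest tag number at a listed summit was 5 in Msx2-WT and 3 in each Msx2-KO library, and the lists held 102973, 34904 and 80388 autosomal summits, respectively. At the usual background an Msx2-WT site with up to 4 tags, or 2.30 times the background, went unlisted. Absence from the Msx2-WT list therefore means below that level, not closed. The promoters of all 18 HFSC genes of the stem cell list carried a peak in Msx2-WT and in KO2, and 15 of 18 did in KO1. Among 12 fibroblast and endothelial marker genes, 7, 3 and 6 promoters carried a peak in Msx2-WT, KO1 and KO2, and among 11 leukocyte marker genes 2, 0 and 2 did. Over all 20720 protein-coding genes of the autosomes the counts were 12519, 9568 and 13061, also lowest in KO1. The purity of the sorted cells was not tested.

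The sequences of the 5 members with the largest −log10 p in their weaker Msx2-KO library, 1 per nearest gene, are printed first, since these are the sites at which both knockout libraries were most clearly above background. They are followed by the strongest members nearest to Msx2, the disrupted gene, and to Tgfbr1, a type I receptor for TGF-beta. The last is the strongest member nearest to Tnc, which encodes the matrix glycoprotein tenascin C. The Tnc region was chosen after its values were seen. Each is 200 bases of the plus strand of GRCm38 around the summit in KO2, from 5′ to 3′. Capitals mark matches on either strand to any of the motifs searched, which are spelled out with their shares further on.
Brinp2 region, chr1:158164242-158164441: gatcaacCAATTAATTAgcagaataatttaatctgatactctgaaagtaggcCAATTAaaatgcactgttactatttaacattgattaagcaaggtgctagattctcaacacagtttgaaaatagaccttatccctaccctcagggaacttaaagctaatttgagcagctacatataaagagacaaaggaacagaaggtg
Gm2007 region, chr2:175737702-175737901: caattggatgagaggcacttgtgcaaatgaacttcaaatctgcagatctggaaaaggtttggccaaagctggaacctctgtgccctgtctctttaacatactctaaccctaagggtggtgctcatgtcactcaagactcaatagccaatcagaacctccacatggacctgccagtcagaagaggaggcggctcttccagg
Naaladl2 region, chr3:25007205-25007404: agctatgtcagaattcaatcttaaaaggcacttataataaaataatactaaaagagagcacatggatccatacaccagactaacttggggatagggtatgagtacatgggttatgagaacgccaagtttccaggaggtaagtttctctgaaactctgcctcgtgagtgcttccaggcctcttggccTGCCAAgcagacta
Eepd1 region, chr9:25783395-25783594: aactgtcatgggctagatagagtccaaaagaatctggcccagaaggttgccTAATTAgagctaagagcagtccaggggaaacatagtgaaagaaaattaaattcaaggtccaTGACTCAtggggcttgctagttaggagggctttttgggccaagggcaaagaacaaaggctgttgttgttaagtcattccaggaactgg
Ptchd4 region, chr17:42185354-42185553: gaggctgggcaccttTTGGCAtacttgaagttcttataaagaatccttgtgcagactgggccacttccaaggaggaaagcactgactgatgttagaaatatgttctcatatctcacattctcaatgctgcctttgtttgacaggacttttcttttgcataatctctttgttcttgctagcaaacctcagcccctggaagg
Msx2 region, chr13:53524999-53525198: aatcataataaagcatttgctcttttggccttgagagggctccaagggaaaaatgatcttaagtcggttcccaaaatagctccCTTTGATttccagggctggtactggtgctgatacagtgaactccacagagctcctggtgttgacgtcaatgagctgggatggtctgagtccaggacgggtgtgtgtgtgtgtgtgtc
Tgfbr1 region, chr4:47361394-47361593: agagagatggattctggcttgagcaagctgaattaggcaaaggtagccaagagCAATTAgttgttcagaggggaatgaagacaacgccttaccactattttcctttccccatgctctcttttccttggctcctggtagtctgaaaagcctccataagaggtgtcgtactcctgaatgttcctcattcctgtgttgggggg
Tnc region, chr4:64014415-64014614: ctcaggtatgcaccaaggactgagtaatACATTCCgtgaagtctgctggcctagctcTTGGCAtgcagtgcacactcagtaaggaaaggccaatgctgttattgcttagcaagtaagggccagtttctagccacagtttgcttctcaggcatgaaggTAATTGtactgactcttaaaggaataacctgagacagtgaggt

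In the Brinp2 region the capitals near the start are a TAATTG match on the minus strand that runs into a TAATTA match, and a further TAATTG match on the minus strand stands alone. The Eepd1 region held a TAATTA match and an AP-1 match. The Tgfbr1 region held 1 TAATTG match and the Tnc region held TEAD, NFI and TAATTG matches. The Gm2007 region held no match to any of the 15 motifs. These letters are a description of the reference and not evidence of binding.

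Tag numbers at the members were low in both knockouts. The median was 5 tags in KO1 (interquartile range 4 to 7, highest 29) and 8 in KO2 (6 to 12, highest 44). Divided by the background of each library these were 10.5 and 10.1, and the higher of the 2 ratios was that of KO2 in 51.4% of members. Spearman's rho between the libraries was 0.48 over the 3971 members, given without a test, and 257 members had at least 10 tags in both. A q-value under 0.01 was met in both libraries by 1539 members (38.8%), in KO2 by 2820 (71.0%), in KO1 by 1835 (46.2%) and in neither by 855 (21.5%).

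**Figure D1:**
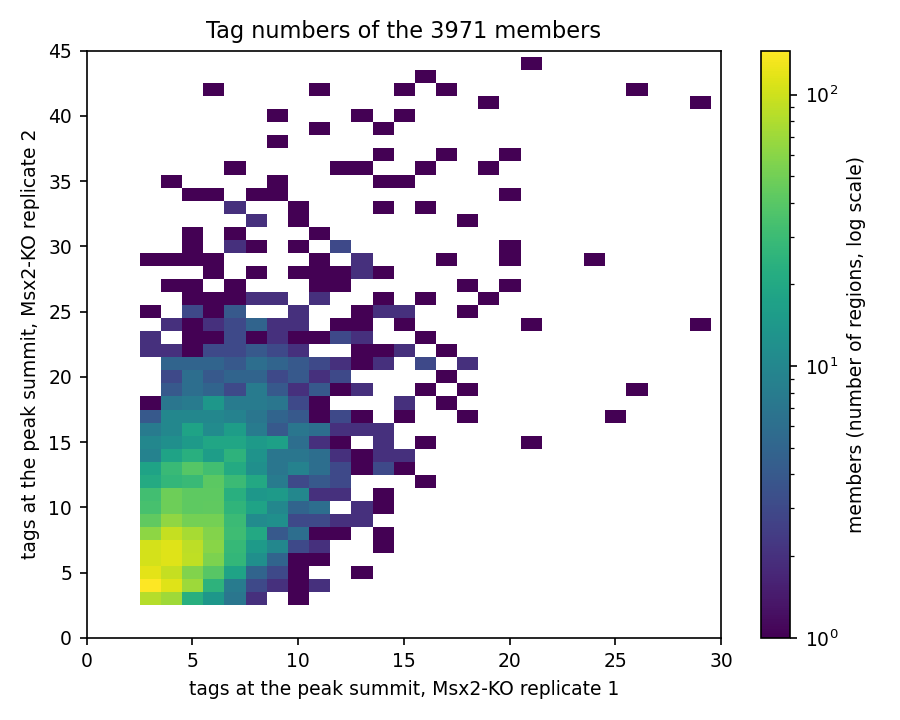
Tags at the peak summit of each member in KO1 (x axis) and KO2 (y axis), with the colour giving the number of members at each pair of values on a log scale. Most members sit near the medians of 5 and 8 tags, and a thin tail reaches 29 and 44 tags.

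The gap from a member to the nearest Msx2-WT peak had a median of 7096 bases (interquartile range 2993.5 to 14673.5). By the rule no member overlaps an Msx2-WT peak, and the gap was not summarised for any other class. It therefore does not show whether members lie farther from Msx2-WT peaks than other positions do. Within 500 bases of an Msx2-WT peak lay 139 members (3.50%), and 30 lay within 100 bases. At the edges of the rule, 5 members had their centre 1501 to 1600 bases from a start and 11 regions of the same kind were left out at 1401 to 1500 bases. The lowest −log10 p of a member in its weaker library was 2.00, and 378 members lay below 2.5. On the other side of the rule, 472 of the 10911 distal regions present in all 3 libraries (4.33%) had a −log10 p under 2.5 in Msx2-WT. Their median tags were 5 in Msx2-WT, 5 in KO1 and 9 in KO2, close to those of the members in the knockouts.

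The count was set beside its mirror images. Distal regions with a peak in Msx2-WT and KO2 and none in KO1, called WT+KO2 regions, numbered 10321 (7.71% of distal regions). Those with a peak in Msx2-WT and KO1 and none in KO2, called WT+KO1 regions, numbered 1128 (0.843%), and 107451 (80.3%) had a peak in 1 library alone. The members thus outnumbered the regions shared by Msx2-WT with the shallower knockout and were fewer than those shared with the deeper one. With each list cut to the 34904 summits of largest −log10 p the order of the first pair reversed: 4345 regions were in both knockouts and not in Msx2-WT, compared with 2782 WT+KO2 regions and 1197 WT+KO1 regions. With a q-value under 0.01 in every list the counts were 3021, 4755 and 296. Both settings shorten the Msx2-WT list, which held 102973 summits in full. Regions counted there as not in Msx2-WT can thus carry a weaker Msx2-WT peak in the full list and need not be members. Near start sites, within 1500 bases, 419 of 15246 regions (2.75%) were in both knockouts and not in Msx2-WT.

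The members were of intermediate width and lay farther from genes than the other classes shared by libraries, but not farther than distal regions as a whole. Their merged width had a median of 834 bases, compared with 692 bases for WT+KO2 regions, 627 bases for WT+KO1 regions and 1048 bases for those in all 3 libraries. The median distance from a member to the nearest protein-coding start was 55284 bases (interquartile range 19719 to 144235), compared with 34857, 43606 and 38849 bases in the same 3 classes and 59813.5 bases over all distal regions. The share of members more than 100 kb from any start was 33.8% (95% Wilson interval 32.4 to 35.3), against 23.6% (22.8 to 24.4) of WT+KO2 regions, 31.4% (28.7 to 34.2) of WT+KO1 regions, 24.6% (23.8 to 25.4) of those in all 3 and 38.1% of all distal regions. Intervals on shares of regions cover counting error only and treat regions as separate, which neighbours are not. With a q-value under 0.01 in every list, regions in both knockouts and not in that Msx2-WT list had a median distance of 60285 bases. The medians of WT+KO2 regions and of those in all 3 were then 29907 and 36778 bases.

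**Figure D2:**
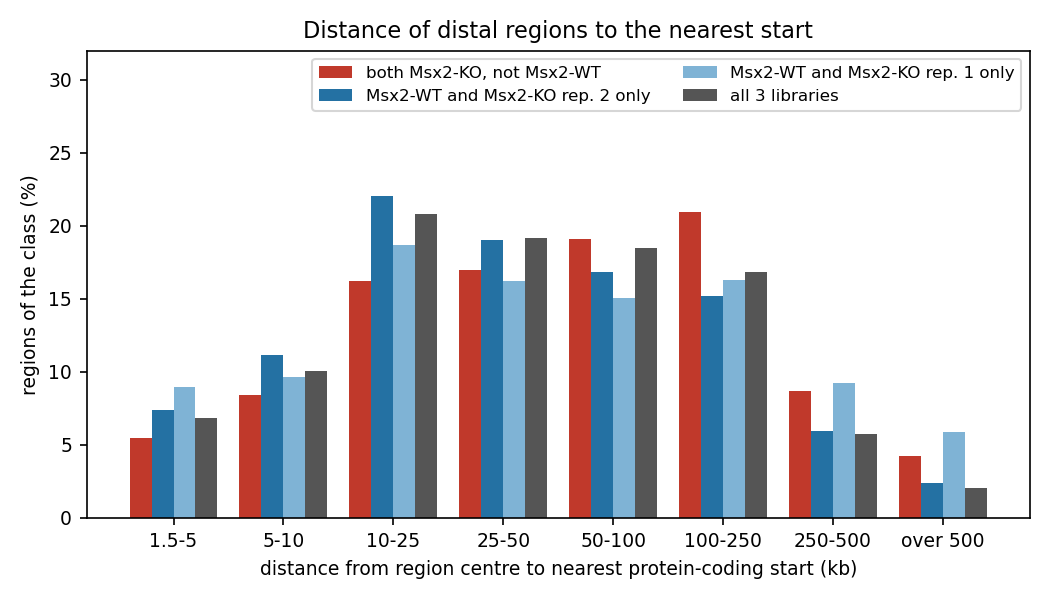
Share of the regions of each class (y axis, %) by distance from the region centre to the nearest protein-coding start (x axis, kb), with the 4 classes as bars. The members (red) are below the WT+KO2 regions in each bin up to 50 kb and above them in each bin beyond it.

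Introns of protein-coding genes held 1682 members (42.4%, 40.8 to 43.9), exons held 96 (2.42%) and 2193 (55.2%) were intergenic. The intron share was 43.0% for WT+KO2 regions, 37.6% (34.8 to 40.5) for WT+KO1 regions, 41.5% for those in all 3 and 37.4% (37.1 to 37.6) for all distal regions, so the members were close to the 2 larger shared classes and above the others. Repeats did not set them apart from the deeper knockout's class either: windows of 300 bases around the strongest summit were mostly repeat-masked in 8.06% of members (7.25 to 8.95) and in 7.34% (6.86 to 7.86) of WT+KO2 regions. The same share was 3.54% of regions in all 3 libraries and 23.4% of WT+KO1 regions. The gene nearest to a member had a promoter peak in all 3 libraries for 62.4% of members (60.9 to 63.9), compared with 48.5% for all distal regions, and a promoter peak in both knockouts and not in Msx2-WT for 146 members (3.68%, 3.13 to 4.31), compared with 3.40% for all distal regions.

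The members were richer in A and T than the regions that Msx2-WT shared with either knockout. Their median G+C content in 300 bases was 46.0% (interquartile range 42 to 50), compared with 48.7% for WT+KO2 regions, 47.0% for WT+KO1 regions, 49.0% for those in all 3 and 45.3% for all distal regions. Motif shares move with this base composition. Each motif share below was therefore also computed with the comparison class weighted to the G+C content of the members, an alternative chosen after the data were seen.

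Before weighting, homeodomain letters were more frequent in members than in the other classes shared by libraries. TAATTG, the core that Msx-type homeodomains prefer, was found in 700 members, or 17.6% (16.5 to 18.8), compared with 10.7% (10.1 to 11.3) of WT+KO2 regions, 7.71% (6.30 to 9.42) of WT+KO1 regions, 13.0% (12.4 to 13.6) in all 3 and 12.1% of all distal regions. Weighted to the G+C content of the members the comparison shares were 12.8%, 7.79%, 16.5% and 11.5%. Weighting thus closed most of the gap to the regions in all 3 libraries and left most of the gap to the WT+KO2 regions. TAATTA, the core shared by LIM and many other homeodomains, was found in 588 members, 14.8% (13.7 to 15.9), compared with 8.47%, 6.56% and 10.8% in the 3 classes and 10.7%, 6.91% and 14.8% after weighting. For TAATTA, weighting thus left no gap between members and the regions in all 3 libraries. TAATTG was found in 19.9% (18.0 to 22.0) of members with a q-value under 0.01 in both knockouts and in 16.2% (14.8 to 17.7) of the others.

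AP-1 letters were less frequent in members than in the 2 larger classes. TGANTCA, the palindromic site of Jun and Fos proteins, was found in 636 members, 16.0% (14.9 to 17.2), compared with 19.9% (19.2 to 20.7) of WT+KO2 regions, 19.8% (19.1 to 20.6) of those in all 3, 12.9% of WT+KO1 regions and 12.7% of all distal regions. After weighting, the shares of WT+KO2 regions and of those in all 3 became 20.6% and 20.9%. GGGTGTGG, a site of KLF factors, was found in 3.42% (2.90 to 4.04) of members, 5.39% of WT+KO2 regions and 5.45% of those in all 3, or 4.57% and 4.76% after weighting. NFI letters were frequent in members: TTGGCA, an NFI half-site, was found in 29.5% (28.1 to 31.0) of members, 27.5% of WT+KO2 regions, 20.04% of WT+KO1 regions, 31.6% of those in all 3 and 19.9% of all distal regions.

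The remaining motifs were each found in fewer than 1 in 10 members. TGTGGTT (RUNX) was found in 8.31% of members (7.49 to 9.21), ACATTCC (TEAD) in 7.03% (6.27 to 7.86), ACAATGG (SOX) in 5.94% (5.25 to 6.72) and CTTTGAT (TCF/LEF) in 5.11% (4.47 to 5.84). In the regions of all 3 libraries the same shares were 7.62%, 7.84%, 5.73% and 4.70%. TGTTTAC (FOX) was found in 4.18% of members, AGATAAG, a site of the GATA family, in 3.93%, CCGGAAG (ETS) in 1.44% and CAGGGGGC (CTCF) in 1.28%. The shares of the same 4 motifs were 4.96%, 4.71%, 2.36% and 1.40% in all 3 libraries and 5.25%, 5.00%, 1.93% and 1.87% in WT+KO2 regions. The palindrome GTCTAGAC, a SMAD site, was rare, in 6 members (0.151%, 0.0693 to 0.329) compared with 43 WT+KO2 regions (0.417%, 0.309 to 0.561) and 51 regions in all 3 libraries (0.467%, 0.356 to 0.614). AACCGGTT (GRHL) was also found in 6 members, compared with 31 WT+KO2 regions and 37 regions in all 3 libraries (0.339%, 0.246 to 0.467). Motifs were searched on both strands, TAATTG and TAATTA matches can share bases, as can TAATTG and TTGGCA, and a match is not a bound site. In 31396 RefSeq promoters of the same length on the autosomes of GRCm38, TAATTG was found in 8.04%, TAATTA in 5.27%, TGANTCA in 7.84% and TTGGCA in 14.1%.

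**Figure D3:**
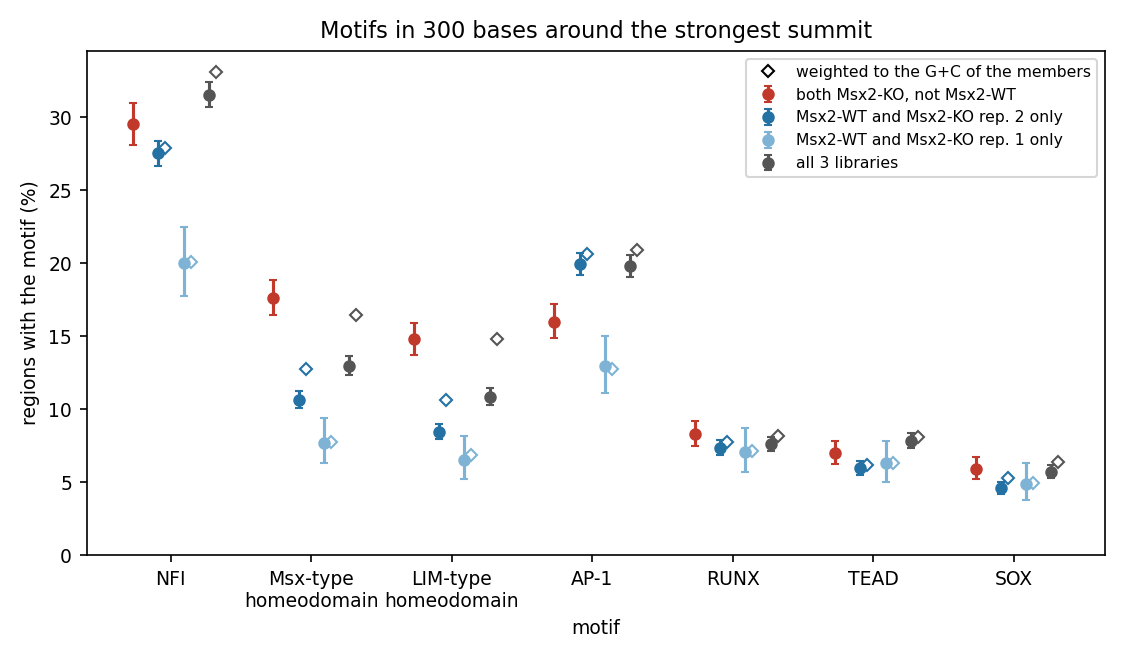
Share of regions with each motif (y axis, %) in 300 bases around the strongest summit, for 7 motifs and 4 classes. Filled points carry 95% Wilson intervals and open diamonds are the comparison classes weighted to the G+C content of the members. The members (red) are highest for both homeodomain motifs before weighting, at 17.6% and 14.8%, and below the WT+KO2 regions for AP-1.

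Members were next to each other on the chromosome more often than their share of distal regions, and so were the other classes. For 220 members the next distal region was also a member, which is 5.54% (4.87 to 6.30) against a share of 2.97%, or 1.87 times as often. The same ratio was 1.65 for WT+KO2 regions (12.7% against 7.71%), 1.37 for WT+KO1 regions (1.15% against 0.843%) and 2.36 for those in all 3 (19.3% against 8.16%). Among distal regions in at least 2 libraries the next region was a member for 20.8% of members (19.6 to 22.1) against a share of 15.1%, a ratio of 1.38. The shares of the other classes were 39.2% (WT+KO2 regions), 4.28% (WT+KO1 regions) and 41.4% (all 3 libraries), with ratios of 1.11, 2.17 and 1.08. Each of the 4 classes thus lay next to its own kind more often than its share, although for WT+KO1 regions among all distal regions the interval included that share.

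**Figure D4:**
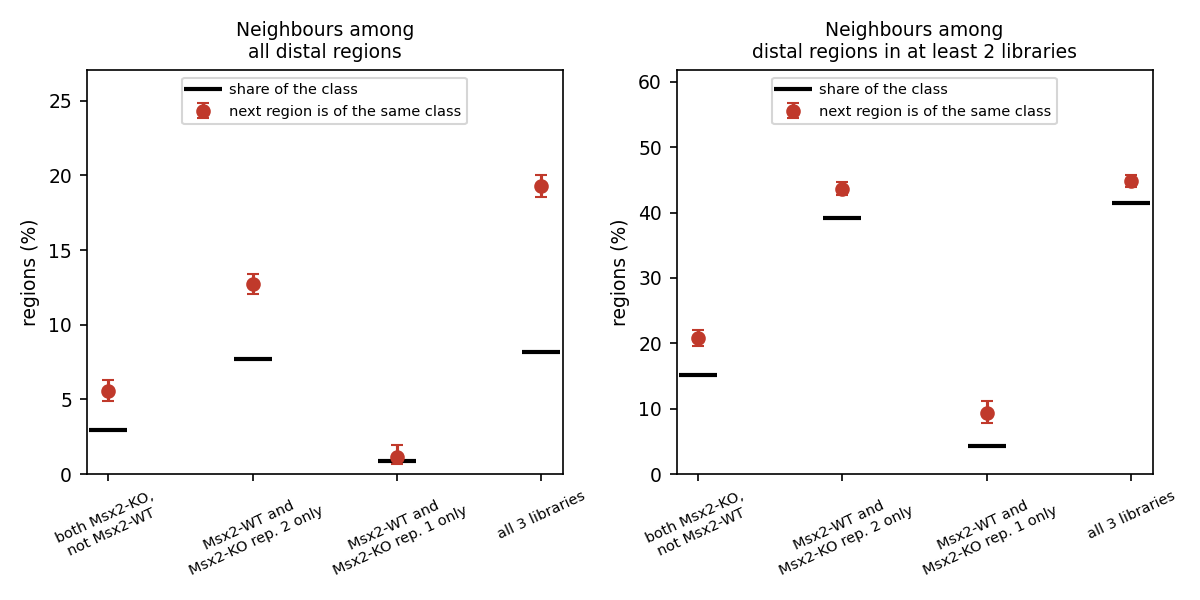
Share of regions whose next distal region on the chromosome is of the same class (red points, y axis in %, with 95% Wilson intervals) and the share of the class itself (black bars), for 4 classes among all distal regions (left) and among those in at least 2 libraries (right). The members are at 5.54% against 2.97% on the left and at 20.8% against 15.1% on the right.

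Most members stood alone. Between other distal regions 3546 members (89.3%) had no member next to them, 190 runs held 2 members and 15 runs held 3, the longest. The shortest of these runs of 3 lay in introns of Slc25a13, a mitochondrial aspartate-glutamate carrier, on chromosome 6 from 6183662 to 6194627, with 6 to 7 tags in KO1 and 13 to 15 in KO2. Others lay in introns nearest to Fez2 on chromosome 17 (12095 bases long), Map7 on chromosome 10 (12278 bases) and Retreg1 on chromosome 15 (13107 bases), and in intergenic DNA nearest to Sox4, a SOX transcription factor, on chromosome 13 (14883 bases).

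At a scale of 1 Mb the members were spread over the genome. Of 2413 windows with a distal region, 1588 (65.8%) held a member, 196 held at least 5 and the most held by 1 window was 14. That window lay on chromosome 10 from 99 to 100 Mb, with 14 members among 84 distal regions, of which 6 were nearest to Dusp6, an ERK phosphatase, 5 to Csl, 2 to Poc1b and 1 to Kitl, the ligand of the Kit receptor. Next came chromosome 5 from 77 to 78 Mb with 13 of 106, of which 7 were nearest to Igfbp7 and 3 to Hopx, and chromosome 4 from 95 to 96 Mb with 11 of 75, of which 6 were nearest to Fggy, 4 to Jun and 1 to Hook1. The windows on chromosome 13 from 28 to 29 Mb held 10 of 58, 8 of them nearest to Sox4, and on chromosome 6 from 6 to 7 Mb 10 of 70, with 6 nearest to Slc25a13 and 3 to the homeobox genes Dlx5 and Dlx6. Regions shared by all 3 libraries numbered 12, 16, 11, 5 and 8 in these windows, respectively. By chromosome the members made up between 2.25% (chromosome 7) and 3.92% (chromosome 10) of distal regions. Near the disrupted gene the intervals included the share of 2.97% over all distal regions. Within 1 Mb of Msx2, 5 of 121 distal regions were members (4.13%, 1.78 to 9.31). Within 5 Mb 16 of 589 were (2.72%, 1.68 to 4.37) and within 10 Mb 34 of 1048 (3.24%, 2.33 to 4.50).

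Msx2 (ENSMUSG00000021469.9, chromosome 13, 53466884 to 53473074, minus strand) is the disrupted gene. It was the nearest gene of 27 distal regions, all upstream or downstream of it in intergenic DNA, of which 3 were members, 5 were WT+KO2 regions, 3 were in all 3 libraries and 8 were in each of Msx2-WT alone and KO2 alone. The member at 53524373 to 53525384 lay 51804 bases from the start and had 6 tags in KO1 and 8 in KO2. The member at 53531912 to 53532860 had 5 and 4 tags, and the member at 53649631 to 53650418, 176950 bases away, had 7 and 6. The Msx2 promoter itself carried a peak in every library. Over all members the medians were 5 and 8 tags, and the middle of these 3 members was below the first quartile of 6 tags in KO2.

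Tgfbr1 (ENSMUSG00000007613.15), at 47353222 to 47414931 on chromosome 4, plus strand, was the nearest gene of 6 distal regions. Only 1 was a member, in an intron 7778 bases from the start, with 5 tags in KO1 and 10 in KO2, and the nearest Msx2-WT peak lay 7556 bases away. Another intronic region, 21153 bases from the start, had a peak in all 3 libraries with 28 tags in Msx2-WT, 19 in KO1 and 26 in KO2. Divided by the background of each library these were 16.1, 39.9 and 32.9. The Tgfbr1 promoter had 22, 48 and 56 tags, or 12.7, 100.8 and 70.9 times the background. Both sites were thus listed in every library and were lowest over the background in Msx2-WT. This order was not particular to Tgfbr1. Over all distal regions in all 3 libraries the median was 8.06 times the background in Msx2-WT, 14.7 in KO1 and 18.99 in KO2.

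The strongest members were examined one by one. Nearest to Brinp2, a gene active in neurons, the region on chromosome 1 at 158163681 to 158164903 had 24 tags in KO1 and 29 in KO2, and lay 192034 bases from the start and 27560 bases from any Msx2-WT peak. The region nearest to Ptchd4, on chromosome 17 at 42184525 to 42185932, had 21 and 44 tags. Nearest to Eepd1, on chromosome 9 at 25782627 to 25783838, the tags were 20 and 37. The regions nearest to Gm2007, a predicted gene, and Naaladl2 had 20 and 27 tags and 19 and 26 tags, respectively.

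Of the rest of the 10 strongest, 4 were nearest to Ppm1h, a protein phosphatase (16 and 36 tags), Nceh1, a cholesterol ester hydrolase (19 and 36), Ibtk (20 and 30) and Zfp606, a zinc finger gene (18 and 32). Over their background the 10 strongest reached 33.6 to 50.4 in KO1 and 32.9 to 55.7 in KO2. None had an Msx2-WT peak nearer than 4736 bases, and each of the 10 genes had only 1 to 8 members. Brinp2 had a promoter peak in KO2 alone, Gm2007 in no library and Ptchd4 in Msx2-WT and KO2, whereas the promoters of Eepd1, Naaladl2, Ppm1h, Nceh1, Ibtk and Zfp606 carried a peak in all 3 libraries.

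In all, 2607 of the 15420 protein-coding genes with a nearest distal region had at least 1 member, or 16.9%, compared with 37.4% of genes for WT+KO2 regions and 6.34% for WT+KO1 regions. Of the 2607 genes, 1847 had 1 member and 71 had at least 5. A gene with more distal regions around it can hold more members, so each count is given with the number of distal regions.

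Tnc had the highest share of members among the 8 genes with the most, with 9 of 39 distal regions. Tenascin C is a matrix glycoprotein of the dermis and the follicle that modulates cell adhesion. Its gene (ENSMUSG00000028364.15) spans 63959785 to 64047015 on chromosome 4, minus strand, and 3 of the 9 members lay in its introns. The intronic member at 64014337 to 64014865 had 12 tags in KO1 and 13 in KO2. The intronic members at 64025101 to 64026058 and 64030063 to 64030923 had 4 and 7 tags and 5 and 21 tags, respectively. A member at 64052903 to 64053534, 6203 bases from the start, had 4 and 11 tags, and the other 5 lay 61938 to 533382 bases away with 3 to 8 tags in KO1 and 6 to 20 in KO2.

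The Tnc promoter followed the members. It carried a peak with 5 tags in KO1 (−log10 q 1.98) and 25 in KO2 (15.7), and none was listed in Msx2-WT. Msx2-WT also had peaks at the locus: 6 distal regions had a peak in all 3 libraries, among them an intronic one at 64033183 to 64033786 with 14 tags in Msx2-WT, 12 in KO1 and 20 in KO2, and 8 regions had a peak in Msx2-WT alone, with 5 to 26 tags.

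Efna5, which encodes an ephrin ligand, had the most members, 12 of 125 distal regions, spread over 1982028 bases on chromosome 17, with 4 to 8 tags in KO1 and 3 to 30 in KO2. Cxcr4, a chemokine receptor gene on chromosome 1, had 9 members of 56, all intergenic and 22500 to 306208 bases from the start. No Cxcr4 region was shared by Msx2-WT with 1 knockout only, and 5 had a peak in all 3 libraries. Its strongest member, at 128897946 to 128899051, had 14 tags in KO1 and 26 in KO2.

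Lmo4, a LIM-only transcription cofactor gene, had 9 members of 67 on chromosome 3, with 3 to 9 and 7 to 16 tags. Nrg1, which encodes the ERBB receptor ligand neuregulin 1, had 9 of 104 on chromosome 8, and 8 of these lay in its introns, the strongest with 13 and 17 tags. Igfbp7, a secreted binding protein gene, had 9 of 112, and Klhl29 had 9 of 85, the strongest an intergenic region with 12 and 14 tags and another an intronic region with 13 and 40. The promoters of Efna5, Cxcr4, Lmo4, Klhl29, Nrg1 and Igfbp7 carried a peak in all 3 libraries.

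Cdh5, the gene of the endothelial cadherin, was the nearest gene of 57 distal regions, of which 9 were members and 11 were in all 3 libraries. Its members were all intergenic and lay 117777 to 653799 bases from the start on chromosome 8. The Cdh5 promoter carried a peak of 7 tags in Msx2-WT and none in either Msx2-KO library, the opposite of the Tnc promoter. This Cdh5 peak had a −log10 q of 1.00 and the Tnc promoter peak in KO1 one of 1.98. Neither met a q-value under 0.01. Tek and Col1a2, from the same marker list and also with members, had a promoter peak in all 3 libraries.

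**Figure D5:**
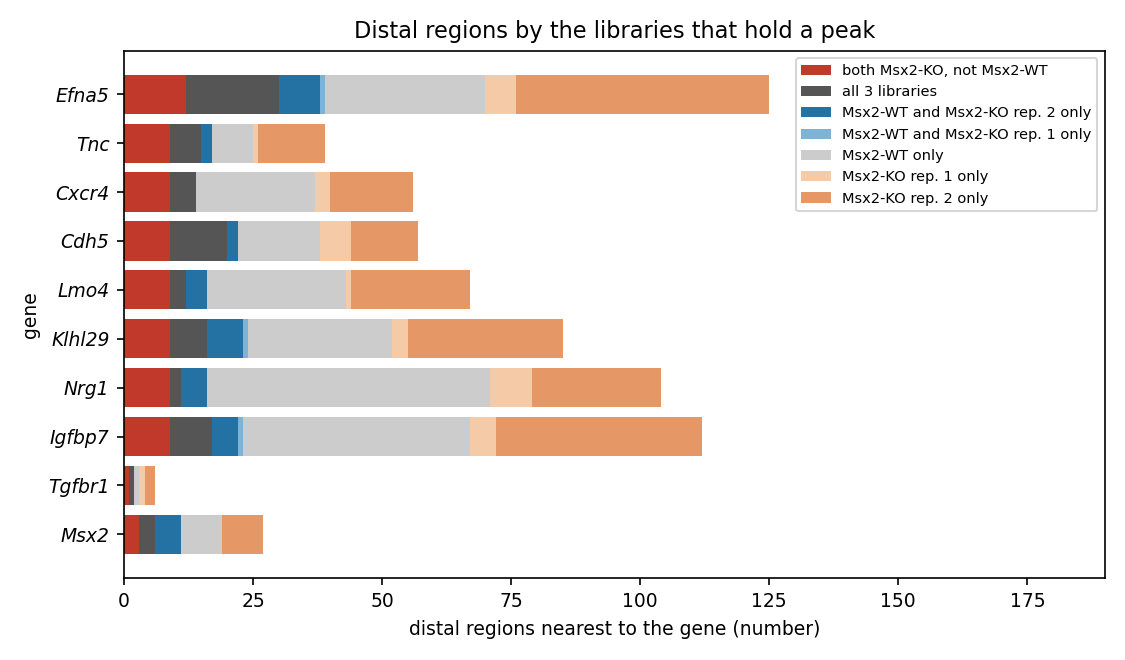
Distal regions nearest to each gene (x axis, number) for the 8 genes with the most members and for Tgfbr1 and Msx2, coloured by the libraries that hold a peak. The members (red) are 9 of 39 regions at Tnc and 12 of 125 at Efna5, and regions of 1 library alone make up much of every bar.

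Genes of 10 lists were then examined, each set beside all genes, where members were 2.97% of distal regions and 15.1% of those in at least 2 libraries. The median number of members per gene was 0 in each list and over all genes. Listed genes have more distal regions than most genes, so shares of regions are given before counts of genes. None of these shares was tested. In the settings with a q-value limit or lists of equal length, the Msx2-WT list was cut as well. Regions counted as members in those settings can therefore carry a weaker Msx2-WT peak in the full list.

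The HFSC list had a low share among regions in at least 2 libraries, but not among all distal regions. Of 521 distal regions nearest to its 18 genes, 14 were members (2.69%, 1.61 to 4.46), an interval that includes the 2.97% over all genes. Of the 206 regions in at least 2 libraries the share was 6.80% (4.09 to 11.1) against 15.1%, while 105 were in all 3 libraries. Members were nearest to 7 of the 18 genes (38.9%), compared with 16.9% of all genes with a nearest distal region. Gas1, a growth arrest gene, had 3, with 3 to 6 tags in KO1 and 6 to 15 in KO2. Nfib, an NFI factor gene, had 3 of 81 distal regions, all at least 103962 bases from its start. Lhx2, a LIM homeodomain gene of HFSCs, had 2 of 17, 1 in an exon at 38368638 to 38369096 and 1 just beyond the gene at 38370915 to 38372312 on chromosome 2, with 11 and 14 tags and 6 and 14 tags. The low share of the HFSC list among regions in at least 2 libraries was seen in each setting tried: 5.88% against 21.3% over all genes with a q-value under 0.01, 7.41% against 18.3% with a −log10 q of at least 5, and 12.9% against 27.3% with lists of equal length.

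The TGF-beta and BMP list had 22 members of 643 distal regions (3.42%) and 12.9% of those in at least 2 libraries. They were nearest to 13 of 31 genes (41.9%, against 16.9% of all genes). Inhba, which encodes the activin A subunit, had 3, of which the strongest, at 16364174 to 16364831 on chromosome 13, had 13 and 28 tags. Acvr2a, an activin receptor gene, had 3 at 309692 bases or more from its start. Ltbp1, which encodes a protein that stores latent TGF-beta in the matrix, had 3 in its introns, with 5 to 8 and 5 to 12 tags. The share of this list depended on the setting. Among regions in at least 2 libraries it was 29.7% against 21.3% over all genes with a q-value under 0.01. It was 27.5% against 18.3% with a −log10 q of at least 5, and 31.0% against 27.3% with lists of equal length. Regions so counted numbered 30 with a q-value under 0.01 and 36 with lists of equal length. Both counts exceed the 22 members, so they include regions with an Msx2-WT peak in the full list.

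The Wnt list had 16 members of 381 (4.20%) and 12.4% of regions in at least 2 libraries. Fzd8, a Wnt receptor gene, had 4 of 38, all more than 300 kb upstream, with 5 to 8 and 9 to 14 tags. Fzd7, another receptor gene, had 2 of 18, and Wif1, which encodes a secreted Wnt inhibitor, had 2 of 15. The adhesion and matrix list had 23 of 452 (5.09%) and 14.5%, of which 9 were those of Tnc. Without Tnc it had 14 of 413 (3.39%) and 9.86%. In the same settings, in that order, the share of this list with Tnc was 12.8%, 23.0% and 19.6%. Npnt, which encodes the basement membrane protein nephronectin, had 3 of 20, with 3 to 4 and 7 to 14 tags, and Thbs1, a thrombospondin gene, had 2 of 22.

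The epidermal differentiation list had 24 members of 418 (5.74%) and 14.4% of regions in at least 2 libraries. Jag1, a Notch ligand gene, had 8 of 57, all intergenic over 572025 bases on chromosome 2, with 4 to 7 and 6 to 16 tags. Tfap2b, an AP-2 factor gene, had 5 of 53, and Klf4, a factor gene of the epidermal barrier, had 3 of 44. Among regions in at least 2 libraries the list share was 21.8% against 21.3% over all genes with a q-value under 0.01. It was 8.51% against 18.3% with a −log10 q of at least 5, and 25.4% against 27.3% with lists of equal length. The AP-1 and stress list had 16 of 290 (5.52%) and 13.2%. Jun had 4 of 24, of which the one 14066 bases from its start had 5 and 21 tags. Bach2 had 3 in its introns, and Myc had 3 of 79. In the same settings, in that order, the AP-1 and stress share was 12.8%, 6.38% and 21.1%.

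The Msx and other homeobox list had 19 members of 486 (3.91%) and 16.4% of regions in at least 2 libraries. The members were nearest to 7 of 23 of its genes (30.4%, against 16.9% of all genes). Among regions in at least 2 libraries the list share was 27.1% against 21.3% over all genes with a q-value under 0.01. It was 32.1% (9 of 28) against 18.3% with a −log10 q of at least 5, and 30.3% against 27.3% with lists of equal length. Meis1, a TALE homeobox gene, had 7 of 51, mostly weak, with 3 to 8 and 3 to 14 tags. Without Meis1 the list had 12 of 435 (2.76%) and 12.6% of regions in at least 2 libraries. Both were below the 2.97% and 15.1% over all genes.

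Markers of other cells that a sort could hold were counted in the same way. The melanocyte list had 6 members of 240 (2.5%), of which 5 were nearest to Dct and 1 to Mitf, and 5, 2 and 6 of its 10 promoters had a peak in Msx2-WT, KO1 and KO2. The leukocyte list had 1 of 42, nearest to Ptprc. The fibroblast and endothelial list had 15 of 187 (8.02%, 4.92 to 12.8) and 30.6% (19.5 to 44.5) of its 49 regions in at least 2 libraries, the highest of the 10 lists. Of these, 9 were nearest to Cdh5, 3 lay in introns of Tek, an endothelial receptor gene, with 3 to 5 and 8 to 14 tags, and 1 was nearest to Col1a2. Without Cdh5 the shares were 4.62% and 22.2%. With a q-value under 0.01 the share of the whole list among regions in at least 2 libraries was 50% (12 of 24). Over all genes it was 21.3%. With lists of equal length the shares were 57.1% (16 of 28) and 27.3%, respectively. The direction turned with a −log10 q of at least 5. There 1 of 9 regions in at least 2 libraries was a member (11.1% against 18.3% over all genes). The part of other cells in the members was not tested.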

How the data were processed

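Per the labels, Omni-ATAC-seq libraries of sorted HFSCs comprised 1 Msx2-WT and 2 Msx2-KO samples. Trimmomatic, BWA (to GRCm38) and MACS2 were the authors' tools for trimming, alignment and peak calling, which was done per library, with duplicates kept. The methods name a Trimmomatic version, and those of BWA and MACS2 are not given in the sources used here. The authors deposited 1 peak list per library, with a fold enrichment over the local background, a −log10 p and a −log10 q for each summit, and a score that was not used. The methods state a q-value limit of 0.01, but each deposited list runs to a p-value of 0.01, so listed peaks include many above that q-value. Duplicates are not independent molecules, and intervals cover counting error only.

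Tag numbers were solved from fold and −log10 p, since they must be whole, for 99.9% of summits in each library. The commonest background of a library served as its depth. Region positions are 1-based in GRCm38. Peaks were merged and assigned to the nearest protein-coding start by region centre, with the basic GENCODE M21 annotation. Sequence features came from 300 bases of GRCm38.p6 around the strongest summit. The recovery, merging and motif scripts were tested on simulated data. No p-value was computed, since there was 1 Msx2-WT library.

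The members and lists were chosen with earlier results of these data known. Named genes were Msx2 and Tgfbr1, those nearest to the 10 members with the largest weaker −log10 p, the 8 with the most members, up to 3 per list, and those at 5 of the 15 longest runs, which tied at 3 members and of which the shortest in bases were taken, and the 5 fullest windows of 1 Mb. Of these, 2 genes are not reported here. Alternatives were a −log10 q above 2 or of at least 5, 50% reciprocal overlap, limits of 500 and 3000 bases, starts of every gene type, the strongest summit in place of the centre, lists of equal length, neighbours within 50 kb, windows of 100 bases and leaving out each Msx2-KO library. Added after the data were seen were neighbours more than 5 kb away, G+C weighting in 9 bins and list shares among regions in at least 2 libraries or without the top gene. Software was pysam 0.24.0, scipy 1.17.1, numpy 2.4.6, pandas 2.3.3 and matplotlib 3.10.9 under Python 3.11.15.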

Additional observations from a re-analysis of the deposited data

Results flagged for a closer look

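Chromosome X lay outside the rule and held a signal of its own. Of its 3625 distal regions, 201 (5.54%, 95% Wilson interval 4.85 to 6.34) had a peak in both Msx2-KO libraries and none in Msx2-WT, compared with 2.97% on the autosomes. WT+KO2 regions made up 3.86% on chromosome X and 7.71% on the autosomes. Chromosome X held 1.17% of all summits in Msx2-WT, 4.32% in KO1 and 3.49% in KO2, and the animals' sex is not stated in the labels. The part of the lower chromosome X share of Msx2-WT in this count was not tested.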

How the results depend on the processing

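No paired analysis was possible because the genotypes share only replicate number 1. Against the 3971 members, the same rule gave 3021 regions with a −log10 q above 2 and 1195 with a −log10 q of at least 5. It gave 3777 to 4345 under the other settings that kept all libraries, within 1.5 times in all but the second. Limits on peak score, list length or reciprocal overlap also loosen absence from Msx2-WT. Regions counted there can therefore overlap a deposited Msx2-WT peak and need not be members. Of the members themselves, 1539 had a q-value under 0.01 in both knockouts. Without 1 Msx2-KO library the count was 12820 to 41737. The 10321 WT+KO2 regions numbered 4755 with a −log10 q above 2, 2784 with one of at least 5, 2782 with lists of equal length and 5790 with 50% reciprocal overlap. The 1128 WT+KO1 regions numbered 296 with a −log10 q above 2 and 100 with one of at least 5. With 1 Msx2-KO library left out the next-region share was 16.2% to 36.2%, the intron share 36.6% to 38.1%, the median G+C content 44% to 45%, the median distance 62067 to 68440.5 bases and the AP-1 share 11.0% to 12.4%, since each then covers regions of 1 knockout alone. The next-region share was 12.9% with a −log10 q above 2 and 14.8% with lists of equal length, where the regions so counted were 8.62% and 10.2% of distal regions. It was 5.72% when the next region more than 5 kb away was taken. The median distance was 60285 bases with a −log10 q above 2. In windows of 100 bases, which hold fewer sites, the AP-1 share was 6.62%. TAATTG was found in 17.6% to 19.5% of regions in both knockouts and not in Msx2-WT over the settings on peak score and list length. The range was 10.3% to 10.8% for WT+KO2 regions and 12.6% to 13.0% for regions in all 3 libraries. Weighting to the G+C content of the members, done in the main setting only, gave 12.8% and 16.5% for these classes, respectively. Depth limits what absence from Msx2-WT means, since up to 4 tags there went unlisted at its usual background.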
